A study of Mus musculus with 14 samples.

Results

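The genes described here carry glucose into the cell and break it down to lactate. They are the glucose carrier Slc2a1, the hexokinases Hk1 and Hk2, the bifunctional regulator Pfkfb3, the phosphofructokinase subunit Pfkl, the lower glycolytic enzymes Aldoa, Pgk1, Eno1 and Pkm, and the lactate dehydrogenase subunit Ldha. The 10 genes were taken by their symbols, as a set that covers uptake, the regulated upper steps and the energy-yielding lower steps. The set was chosen with earlier results of these data known. The symbols name 11 of the 54524 rows of the count table, because Aldoa has a second row, ENSMUSG00000114515, with 290 counts over all samples, which was left out. All 10 genes passed the filter on low counts, which left 26626 genes.

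RNA sequencing was performed on liver sinusoidal endothelial cells (LSECs), the fenestrated cells that line the blood channels of the liver, sorted from male Balb/c mice aged 10 to 12 weeks by the sample labels (the methods give a slightly different age range). There were 4 healthy mice that received no injection, and 2, 4 and 4 mice taken at day 1, 3 and 7 after a single intraperitoneal injection of 0.5 µL per g of carbon tetrachloride (CCl4) in mineral oil, a solvent that injures hepatocytes. The study left out 2 other day 1 samples whose RNA quality was too low for sequencing. No vehicle group was analysed here, so the injection itself and CCl4 cannot be told apart. Cells were sorted as CD32 positive and as negative for F4/80, autofluorescence and propidium iodide, and the methods add CD45 as a negative marker. Nothing in the labels ties samples of the same number together, and p-values measure the spread between these samples.

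Glucose enters endothelial cells through GLUT carriers and is trapped inside the cell by hexokinase. Phosphofructokinase then commits it to glycolysis, a step that is driven by fructose 2,6-bisphosphate, the product of the PFKFB enzymes. The lower enzymes yield ATP and pyruvate, and lactate dehydrogenase turns pyruvate into lactate while it restores the NAD that glycolysis needs. Endothelial cells are known to draw much of their energy from glycolysis. Hypoxia-inducible factors and Myc are textbook activators of many genes of the pathway, and the former bind a short core motif, written in capitals in the sequences below.

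The libraries held between 46401496 and 103912264 counts, and between 22986 (day 3 replicate 4) and 34768 genes with at least 1 count. The sorted cells carried the 12 LSEC markers, whose summed level (CPM, read counts scaled to a common library size with TMM factors) was 19345 to 23564 in healthy samples and 11572 to 16504 over all injected samples. The 11 monocyte and neutrophil markers summed to 558 to 1525 CPM in healthy samples, 4602 and 8648 CPM at day 1, 1438 to 13792 CPM at day 3 and 4335 to 9847 CPM at day 7. At day 3 replicates 1 and 2 had 13792 and 8518 CPM of them, and replicates 3 and 4 had 1570 and 1438 CPM. Hepatocyte markers reached 9088 CPM in healthy replicate 4 against 214 to 413 CPM in the other healthy samples, and lay between 838 and 6230 CPM at days 3 and 7. In such bulk samples, a change in the number of cells of a type and a change in RNA per cell cannot be told apart.

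The start regions of Slc2a1, Hk2, Pgk1 and Eno1, the 4 genes called at day 3, and of Ldha, whose window held the most matches to the motif and which was called in no comparison, are shown from RefSeq (build GRCm38.p6), 250 bases before to 50 bases after an annotated start. Capitals mark ACGTG on either strand (CACGT on the strand printed), the core shared by many hypoxia response elements, and CACGTG holds overlapping matches on both strands. The windows are the Slc2a1 start at chr4:119108495-119108794 on the plus strand, Hk2 at chr6:82774405-82774704 on the minus strand, Pgk1 at chrX:106186850-106187149 on the plus strand, Eno1 (second annotated start) at chr4:150236947-150237246 on the plus strand, and Ldha (first start) at chr7:46845554-46845853 on the plus strand.
Slc2a1: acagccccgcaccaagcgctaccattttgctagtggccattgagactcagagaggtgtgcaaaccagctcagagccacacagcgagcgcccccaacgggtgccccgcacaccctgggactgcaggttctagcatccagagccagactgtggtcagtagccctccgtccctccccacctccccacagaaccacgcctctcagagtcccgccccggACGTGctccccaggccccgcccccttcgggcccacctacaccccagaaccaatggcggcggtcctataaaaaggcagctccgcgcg
Hk2: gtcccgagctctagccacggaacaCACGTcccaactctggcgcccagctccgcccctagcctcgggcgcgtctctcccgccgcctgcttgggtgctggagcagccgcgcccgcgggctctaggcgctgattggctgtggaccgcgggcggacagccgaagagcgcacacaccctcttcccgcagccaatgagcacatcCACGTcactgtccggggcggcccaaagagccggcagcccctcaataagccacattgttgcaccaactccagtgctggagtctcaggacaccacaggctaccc
Pgk1: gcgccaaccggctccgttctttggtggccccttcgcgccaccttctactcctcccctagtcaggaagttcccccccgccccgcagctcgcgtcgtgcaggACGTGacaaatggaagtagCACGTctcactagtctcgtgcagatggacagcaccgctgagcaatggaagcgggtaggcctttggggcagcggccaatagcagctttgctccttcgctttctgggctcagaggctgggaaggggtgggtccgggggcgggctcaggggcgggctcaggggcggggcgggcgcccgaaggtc
Eno1: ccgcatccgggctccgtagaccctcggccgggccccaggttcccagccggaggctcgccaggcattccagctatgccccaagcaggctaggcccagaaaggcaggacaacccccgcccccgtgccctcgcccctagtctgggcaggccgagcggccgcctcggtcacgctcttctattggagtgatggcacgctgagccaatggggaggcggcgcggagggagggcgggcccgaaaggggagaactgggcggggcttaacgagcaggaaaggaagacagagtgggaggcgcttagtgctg
Ldha: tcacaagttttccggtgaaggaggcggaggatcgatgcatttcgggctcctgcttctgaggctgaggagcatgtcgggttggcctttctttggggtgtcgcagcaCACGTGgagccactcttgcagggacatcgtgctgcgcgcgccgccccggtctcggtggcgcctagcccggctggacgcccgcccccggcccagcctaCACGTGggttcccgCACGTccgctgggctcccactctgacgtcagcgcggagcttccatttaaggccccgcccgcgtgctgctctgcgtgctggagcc
The Ldha window held 5 matches, among them the palindrome CACGTG 2 times. The Hk2 and Pgk1 windows held 2 matches each and the Slc2a1 window held 1, while no Eno1 window held these letters. Over all starts, the motif was present in 10 of the 18 windows and in 8 of the 10 genes, all but Pfkl and Eno1. It was present in 19.6% of all 32851 windows of this length and in at least 1 window of 21.8% of 27025 genes. Windows of a gene can overlap, and Aldoa windows 2 and 3 count the same match. A gene with more windows has more chances to hold the motif, and the 18 windows fall on 10 genes. A match is a run of letters and was not tested for binding.

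At day 1 the glucose carrier and 4 of the lower enzymes were higher in LSECs from injected mice. Slc2a1 rose 6.56-fold, Pgk1 2.72-fold, Eno1 2.64-fold, Pkm 2.58-fold and Aldoa 1.66-fold, so that 5 of the 10 genes were called (edgeR, adjusted p under 0.05), all higher, against 4.06% of all tested genes called in either direction. At day 3, 4 of the 10 genes were called higher, Slc2a1, Hk2, Pgk1 and Eno1, against 7.19% of all genes. At day 7 only Hk2 was called, again higher, against 3.18% of all genes. The median log2 fold change of the 10 genes was 0.84 at day 1, 0.65 at day 3 and 0.01 at day 7, where that of all tested genes was -0.03, 0.18 and 0.02. Every sample lay above every healthy sample for 9 of the 10 genes at day 1, 6 at day 3 and 2 at day 7. The same was true of 20.0%, 7.53% and 8.72% of all tested genes. Because the 10 genes were chosen with earlier results of these data known, their counts beside these shares are descriptions. In a fit of the 16311 genes with at least 10 counts in every sample, 1323, 2374 and 1133 were called at day 1, 3 and 7.

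**Figure D1:**
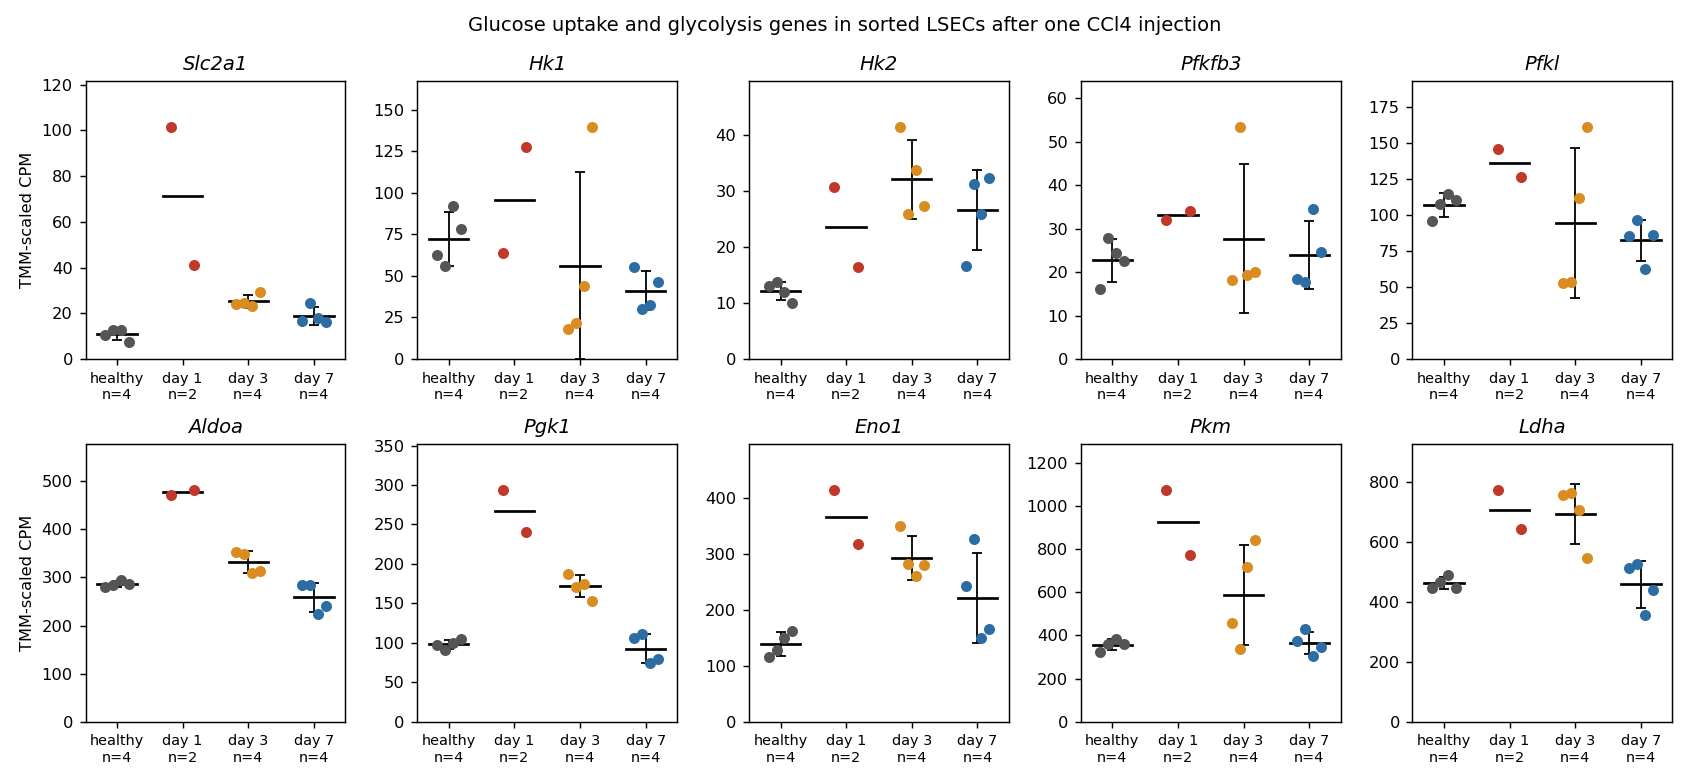
TMM-scaled CPM (vertical axis, linear from 0) of the 10 genes in each of the 14 samples, by group, with the group mean (line) and, for groups of 4, the SD (bar, cut at 0). Slc2a1, Aldoa, Pgk1, Eno1 and Pkm stand highest at day 1, and Hk1 and Pfkl spread widely at day 3.

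Slc2a1 (ENSMUSG00000028645, chr4:119108711-119137983) encodes GLUT1, the carrier for basal glucose uptake. Its level was 10.3, 12.9, 12.6 and 7.58 CPM in the healthy samples, 101 and 41.0 CPM at day 1, 24.1, 24.4, 23.1 and 29.2 CPM at day 3, and 16.7, 24.4, 17.9 and 16.2 CPM at day 7. No injected sample overlapped the healthy ones, and the 2 day 1 samples stood far apart from each other. The log2 fold change was 2.71 (SE 0.31, adjusted p = 0.000382) at day 1 and 1.22 (SE 0.27, adjusted p = 0.0167) at day 3. At day 7 it was 0.79 (SE 0.27), which did not pass the test (adjusted p = 0.114). Between days, Slc2a1 was lower at day 3 than at day 1 (-1.50, SE 0.31, adjusted p = 0.0239), where 1 of the 10 genes was called against 2.54% of all genes, and lower at day 7 than at day 1 (-1.92, SE 0.31, adjusted p = 0.00314). Without the higher day 1 sample, replicate 1, these were -0.77 (adjusted p = 0.623) and -1.07 (adjusted p = 0.206). The day 3 call was lost without healthy replicate 1 (adjusted p = 0.0532) or healthy replicate 4 (adjusted p = 0.0762).

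Slc2a1 also changed its place among the GLUT carriers. Counted per kilobase of exon (RPKM), it made up 16.4% ± 4.9 (SD, n = 4) of the summed level of the 10 GLUT carriers measured in healthy LSECs, where Slc2a8, an intracellular carrier, made up 57.4% ± 4.6. At day 1 the order was turned, with 49.4% and 70.3% for Slc2a1 and 7.05% to 21.3% for Slc2a8. The share of Slc2a1 was 31.4% to 37.3% at day 3 and 21.6% to 30.6% at day 7, still above the highest healthy sample at 19.9%. These shares are a description and were not tested.

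The hexokinases did not move together. Hk2 (ENSMUSG00000000628, chr6:82725025-82774454), the inducible form that binds mitochondria, measured 12.9, 13.8, 12.0 and 10.0 CPM in healthy samples and 30.7 and 16.4 CPM at day 1. It measured 41.3, 25.8, 33.8 and 27.2 CPM at day 3 and 16.6, 31.2, 25.9 and 32.2 CPM at day 7. All injected samples were above all healthy samples, and the lowest of them, at day 1 and day 7, came close to the healthy range. Hk2 rose at day 3 (log2 1.39, SE 0.26, adjusted p = 0.00773) and at day 7 (1.12, SE 0.26, adjusted p = 0.0367), and its day 1 value of 0.95 (SE 0.31) did not pass the test (adjusted p = 0.108). It was the only one of the 10 genes called against healthy LSECs at day 7, and its 3 comparisons between days gave adjusted p of 0.549, 0.616 and 0.795. The day 3 call held with each of the 14 samples left out in turn. The day 7 call was lost with 7 of them left out, each of the healthy samples and day 7 replicates 2, 3 and 4 (adjusted p 0.0610 to 0.121).

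Hk1 (ENSMUSG00000037012, chr10:62268855-62379908), the constitutive form, was called at no day. It measured 62.8, 55.7, 92.3 and 78.4 CPM in healthy samples, 63.7 and 128 CPM at day 1, 18.2, 21.5, 43.8 and 139 CPM at day 3 and 55.4, 30.4, 32.3 and 46.3 CPM at day 7. The 4 day 7 samples were all below the healthy samples, with a log2 fold change of -0.81 (SE 0.53, adjusted p = 0.397). Per kilobase, Hk1 was 70.7% ± 5.2 (SD, n = 4) of the sum of Hk1, Hk2, Hk3 and Hkdc1 in healthy LSECs and Hk2 17.7% ± 4.8, while at day 7 they were 38.9% ± 12.6 and 35.2% ± 7.7. Hk3 made up 11.4% ± 4.0 of this sum in healthy LSECs and 25.6% ± 7.1 at day 7. These shares were not tested. The 157 exon bases that Hk1 shares with its antisense gene Hk1os belong to a gene with 1.19% as many counts.

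At the phosphofructokinase step no gene of the 10 was called at any day. Pfkfb3 (ENSMUSG00000026773, chr2:11471433-11554077), whose product makes the activator fructose 2,6-bisphosphate, measured 16.1, 27.9, 24.5 and 22.6 CPM in healthy samples and 32.0 and 34.2 CPM at day 1. It measured 18.2, 53.3, 19.4 and 20.0 CPM at day 3 and 18.5, 17.7, 34.6 and 24.7 CPM at day 7, so that a single day 3 sample stood apart. Its log2 fold changes against healthy LSECs were 0.54, 0.28 and 0.07, with adjusted p of 0.573, 0.685 and 0.939. Pfkl (ENSMUSG00000020277, chr10:77986947-78010083), the liver-type subunit, measured 95.8, 108, 115 and 110.3 CPM in healthy samples, 146 and 127 CPM at day 1, 52.8, 53.3, 112 and 161 CPM at day 3 and 85.4, 96.5, 62.4 and 85.9 CPM at day 7. Its day 3 samples thus reached both below and above the healthy ones, as those of Hk1 did. Its log2 fold changes were 0.35, -0.18 and -0.38, with adjusted p of 0.717, 0.783 and 0.510.

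**Figure D2:**
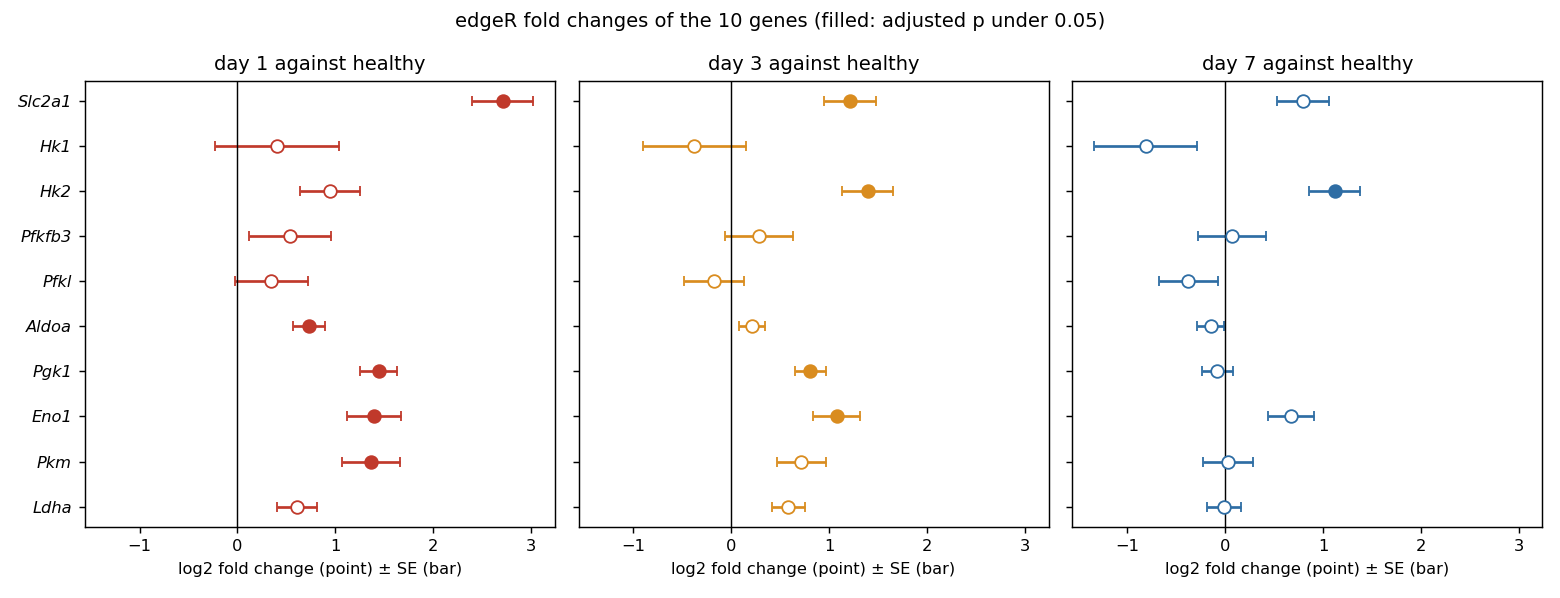
Log2 fold change against healthy LSECs (horizontal axis, point) with its SE (bar) for the 10 genes at day 1, 3 and 7, filled where the adjusted p was under 0.05. At day 1, 5 genes are filled, at day 3 4 and at day 7 only Hk2.

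Among the lower enzymes, Aldoa (ENSMUSG00000030695, chr7:126795234-126800751), the aldolase that splits fructose 1,6-bisphosphate, had the tightest values. It measured 280.2, 284, 295 and 287 CPM in healthy samples, 472 and 482 CPM at day 1, 353, 349, 310.1 and 314 CPM at day 3 and 285, 284, 224 and 241 CPM at day 7. Aldoa rose at day 1 (log2 0.73, SE 0.16, adjusted p = 0.0202). At day 3 all samples were still above the healthy ones, by 0.21 (SE 0.13), which did not pass the test (adjusted p = 0.401). Aldoa was lower at day 7 than at day 1 (-0.88, SE 0.16, adjusted p = 0.00617), a call lost without either day 1 sample. The day 1 call was lost with 6 of the 14 samples left out in turn, healthy replicates 1, 2 and 4, both day 1 samples and day 7 replicate 4 (adjusted p 0.0504 to 0.339).

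Pgk1 (ENSMUSG00000062070, chrX:106187100-106203699) makes ATP in the first energy-yielding step. It measured 96.7, 91.4, 99.4 and 105 CPM in healthy samples, 294 and 241 CPM at day 1, 187, 171, 175 and 154 CPM at day 3 and 106, 111, 74.4 and 79.9 CPM at day 7. The day 1, day 3 and healthy values did not overlap in this order, and the day 7 values lay on both sides of the healthy ones. Pgk1 rose by 1.45 (SE 0.19, adjusted p = 0.000839) at day 1 and by 0.81 (SE 0.16, adjusted p = 0.0101) at day 3 on the log2 scale. It was the only one of the 10 genes called between day 3 and day 7 (-0.89, SE 0.16, adjusted p = 0.0177), where 1.77% of all genes were called. That call was lost with 8 of the 14 samples left out in turn, healthy replicate 4, both day 1 samples, day 3 replicates 1 and 3 and day 7 replicates 1, 3 and 4 (adjusted p 0.0647 to 0.163). The day 3 call was lost without healthy replicate 4 or day 3 replicate 3 (adjusted p 0.0526 and 0.0584).

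Eno1 (ENSMUSG00000063524, chr4:150236721-150248879), the enolase of most tissues, measured 115, 129, 149 and 162 CPM in healthy samples and 415 and 318 CPM at day 1. It measured 351, 282, 260.1 and 281 CPM at day 3 and 243, 327, 149.9 and 166 CPM at day 7. All day 1 and day 3 samples exceeded the healthy samples, and at day 7 replicates 1, 2 and 4 did while replicate 3 lay within the healthy range. The log2 fold change was 1.40 (SE 0.28, adjusted p = 0.0118) at day 1, 1.08 (SE 0.24, adjusted p = 0.0166) at day 3 and 0.67 (SE 0.24, adjusted p = 0.128) at day 7. The day 3 call was lost without healthy replicate 1 or 2 or day 3 replicate 1 or 3 (adjusted p 0.0504 to 0.0694).

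Pgk1 and Eno1 share long stretches with other genes, so their own counts are uncertain. Eno1 had 3 genes whose transcripts matched at 95% identity or more over at least 300 bases, Eno1b, Gm4735 and Gm5855, which together held 67.7% as many counts as Eno1 (57.4% to 75.9% per sample). The 3 Pgk1 pseudogenes held 18.7% as many counts as Pgk1. When the counts of all such genes were added to their member, a choice made after the data were seen, the same numbers of the 10 genes were called, 5, 4 and 1 against healthy LSECs.

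Pkm (ENSMUSG00000032294, chr9:59656368-59679375), the pyruvate kinase of non-hepatocyte tissues, measured 324, 362, 384 and 359.8 CPM in healthy samples and 1073 and 773 CPM at day 1. It measured 457, 335, 718 and 839.8 CPM at day 3 and 375, 432, 306 and 344 CPM at day 7. Pkm rose at day 1 (log2 1.37, SE 0.30, adjusted p = 0.0194), and at day 3 its samples overlapped the healthy ones (0.72, SE 0.25, adjusted p = 0.108). It was lower at day 7 than at day 1 (-1.34, SE 0.30, adjusted p = 0.0168). In all, 4 of the 10 genes were called between day 7 and day 1, Slc2a1, Aldoa, Pgk1 (-1.53, SE 0.19, adjusted p = 0.000754) and Pkm, all lower at day 7, against 8.04% of all genes in either direction. The day 1 call of Pkm was lost with 6 of the 14 samples left out in turn, healthy replicates 1 and 4, both day 1 samples and day 7 replicates 1 and 4 (adjusted p 0.0524 to 0.520), and the day 7 against day 1 call with 4, both day 1 samples and day 7 replicates 3 and 4 (adjusted p 0.0768 to 0.358). Counts per gene do not separate the M1 and M2 transcripts of Pkm.

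Ldha (ENSMUSG00000063229, chr7:46841475-46855627), the subunit that favours lactate formation, had the highest level per kilobase of the 10 genes in each group, on average 139.7 RPKM in healthy LSECs and 214 RPKM at day 1. It measured 448, 467, 489.6 and 445 CPM in healthy samples, 772 and 642 CPM at day 1, 757, 761, 704 and 547 CPM at day 3 and 512, 527, 355 and 439 CPM at day 7. All day 1 and day 3 samples lay above the healthy samples, but neither comparison passed the test (log2 0.61, SE 0.20, adjusted p = 0.119 and log2 0.58, SE 0.17, adjusted p = 0.0561). Ldhb, the subunit that favours the reverse reaction, fell at day 1 by 1.52 on the log2 scale (SE 0.30, adjusted p = 0.0121). It measured 189, 155, 150.1 and 156 CPM in healthy samples and 46.3 and 67.2 CPM at day 1. Ldha was therefore 52.9% to 60.7% of both subunits per kilobase in healthy samples and 81.9% and 88.8% at day 1. The day 3 samples ranged from 74.2% to 80.4%, the day 7 samples from 66.2% to 79.2%. The share in every injected sample exceeded that of every healthy one, and it was not tested.

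**Figure D3:**
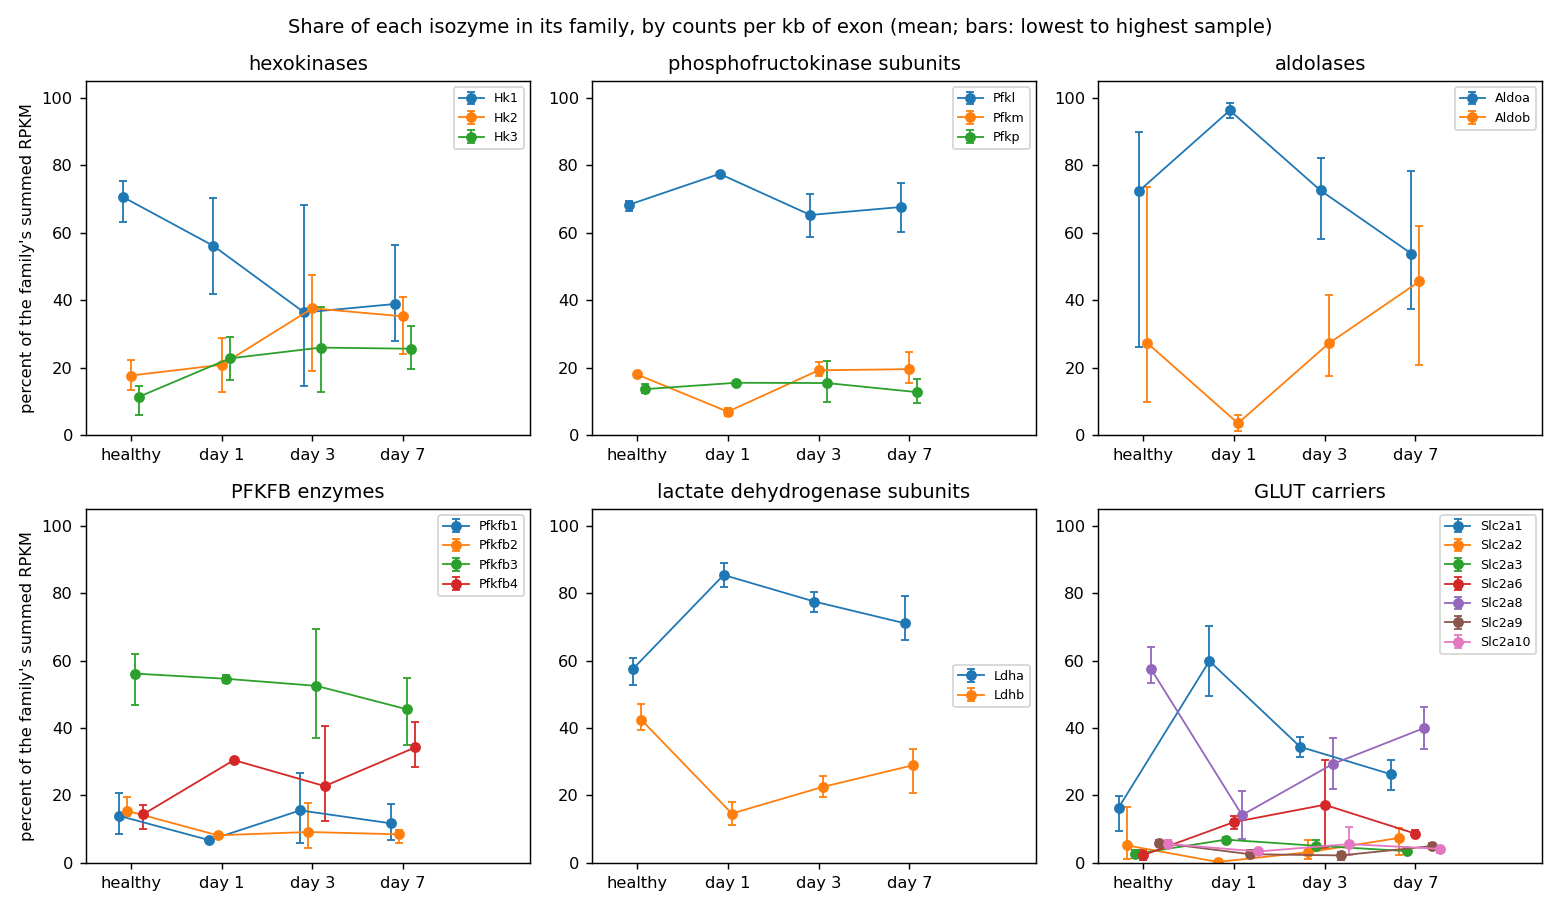
Share of each gene in the summed RPKM of its family (vertical axis, percent), as group mean with the lowest and highest sample (bar), for 6 families (hexokinases as Hk1, Hk2, Hk3 and Hkdc1) and genes that reach 5% in at least 1 group. Slc2a1 replaces Slc2a8 as the leading GLUT carrier at day 1, and Ldha stays above 60.7%, the highest healthy value, in all injected samples.

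Ordered per kilobase, the 10 genes kept the lower enzymes on top in healthy LSECs. Mean levels were 139.7 RPKM for Ldha, 98.5 for Aldoa, 71.4 for Pkm, 43.7 for Pgk1, 25.8 for Eno1, 16.0 for Pfkl, 8.48 for Hk1, 3.10 for Slc2a1, 3.01 for Pfkfb3 and 2.04 for Hk2. The samples of Slc2a1, Pfkfb3 and Hk2 overlapped, so the order of these 3 lay within their spread, and the samples of all other neighbours did not overlap. At day 1 the mean of Slc2a1 was 20.3 RPKM, next to Pfkl (20.4 RPKM) and Hk1 (11.2 RPKM), and its samples overlapped both. Pkm, at 185 RPKM, had a higher mean than Aldoa at 164 RPKM, and its samples lay on both sides of those of Aldoa.

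Across the 14 samples the 10 genes formed 45 pairs, whose Pearson correlations of log2 CPM ran from -0.55 to 0.94 with a median of 0.35. They are descriptions, since all values come from the same libraries and the groups differ. The highest were Aldoa with Pgk1 (0.94), Pgk1 with Ldha (0.91) and Hk1 with Pfkl (0.87), and the lowest was Hk1 with Hk2 (-0.55). Of 9987 genes with a mean of at least 3 log2 CPM, those most like Slc2a1 over the 14 samples were Tmem189 (r = 0.96), Dok3 (0.95) and the lactate exporter Slc16a3 (0.95). For Hk2 they were B4galt6 (0.93), Eps8 (0.93) and Pabpc1 (0.92), for Hk1 Ccar2 (0.95), Pias4 (0.94) and Spns1 (0.94), for Pfkl Vcp-rs (0.96), Akt1 (0.95) and Arhgdia (0.95), and for Pfkfb3 Slc37a3 (0.82), Dmxl2 (0.79) and Kdm4a (0.79). For Aldoa they were Bid (0.96), Ercc1 (0.95) and Sars (0.95), for Pkm Hdgf (0.96), Hmga1b (0.94) and Tomm40 (0.92), and for Ldha Abcf1 (0.96), Timm8a1 (0.96) and the pseudogene Gm4366 (0.94). Pgk1 and Eno1 were most like copies of their own sequence, Gm5537 (0.99) and Pgk1-rs7 (0.99) for Pgk1 and Eno1b (0.98) and Gm4735 (0.98) for Eno1. The pseudogene Gm13394 (0.99) followed for Pgk1 and Lcn2 (0.91) for Eno1.

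Beyond the 10 genes, 104 other genes of glucose use were tested in 9 lists. At day 1, 15 of them were called (12 higher and 3 lower), at day 3 13 (9 higher and 4 lower) and at day 7 3 (2 higher and 1 lower), against the shares of all genes given above. Their median log2 fold changes were 0.14, 0.04 and -0.07. The 12 rises at day 1 were 3 glycolytic enzymes, 3 transporters, 2 regulators and 1 gene each of the fructose 2,6-bisphosphate, pyruvate entry, pentose phosphate and glycogen lists.

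Of the 19 other glycolytic enzymes and isozymes, 3 rose and Ldhb fell at day 1, where the list's median log2 fold change was 0.53. Gapdh, the step before Pgk1, rose by 1.45 (SE 0.22, adjusted p = 0.00246) from 294 to 456 CPM in healthy samples to 819 and 1168 CPM. Eno1b, the near copy of Eno1, rose by 1.63 (SE 0.25, adjusted p = 0.00298). Eno2, the enolase of neurons, rose by 3.58 (SE 0.70, adjusted p = 0.0111) from 0.0798 to 0.275 CPM to 0.958 and 3.24 CPM, a low level throughout. At day 3, 6 genes of the list rose, with a median of 0.14: Eno2 (3.35), the myeloid hexokinase Hk3 (1.39, SE 0.37, adjusted p = 0.0387), Eno1b (1.28) and, named after their values were seen, Gapdh (0.87), Tpi1 (0.86) and Gpi1 (0.63). At day 7 Eno2 rose by 4.57 (SE 0.67, adjusted p = 0.00535), the 1 gene called in the list, whose median was 0.20.

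Of the 4 fructose 2,6-bisphosphate enzymes other than Pfkfb3, Pfkfb4 rose at day 1 (1.68, SE 0.42, adjusted p = 0.0380) and at day 7 (1.61, SE 0.36, adjusted p = 0.0315). It measured 2.66 to 4.51 CPM in healthy samples, 11.3 and 12.5 CPM at day 1 and 9.56 to 13.6 CPM at day 7. At day 3 its replicates 1 and 2 measured 10.8 and 9.66 CPM and replicates 3 and 4 2.61 and 6.41 CPM. Tigar, which lowers fructose 2,6-bisphosphate, fell at day 7 by 0.83 on the log2 scale (SE 0.20, adjusted p = 0.0419), from 5.78 to 6.23 CPM in healthy samples to 3.26 to 3.51 CPM. At day 3 edgeR called 0 of them, with 1 at an unadjusted p under 0.05, 1 called by DESeq2 and 2 by limma voom. The list's medians were -0.05, 0.41 and -0.19 at day 1, 3 and 7.

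Among the 13 other sugar and lactate transporters, Slc16a3, the lactate exporter MCT4, rose most. It measured 3.51, 5.18, 5.61 and 1.68 CPM in healthy samples, 113 and 37.9 CPM at day 1, 19.2, 17.6, 6.31 and 13.1 CPM at day 3 and 7.06, 18.1, 15.3 and 10.7 CPM at day 7. The log2 fold change was 4.24 (SE 0.56, adjusted p = 0.000894) at day 1 and 1.81 (SE 0.47, adjusted p = 0.0350) at day 3. Slc2a3, the high-affinity carrier GLUT3, rose at day 1 by 2.20 (SE 0.38, adjusted p = 0.00612) from 2.35 to 5.08 CPM in healthy samples to 23.1 and 10.3 CPM. Slc2a6, a lysosomal carrier of myeloid cells, rose at day 1 (3.14, SE 0.71, adjusted p = 0.0241) and at day 3 (3.08, SE 0.65, adjusted p = 0.0134). At day 3 Slc2a6 measured 21.5 and 18.5 CPM in replicates 1 and 2 and 3.27 and 3.21 CPM in replicates 3 and 4. Replicates 1 and 2 were also the day 3 samples richer in monocyte and neutrophil markers. Slc16a3 and Slc2a3 were likewise higher at day 1 in replicate 1, the sample richer in these markers. Slc16a3 was also higher at day 3 in replicates 1 and 2 than in replicates 3 and 4. The part of these markers in the results of Slc2a6, Slc16a3, Slc2a3 and Hk3 was not tested.

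The carriers that fell were Slc2a8, by 1.48 on the log2 scale (SE 0.30, adjusted p = 0.0133) at day 1 and by 0.86 (SE 0.23, adjusted p = 0.0387) at day 3, Slc2a13, a proton-coupled myo-inositol carrier, by 2.50 (SE 0.40, adjusted p = 0.00336) at day 1, and Slc2a9, a urate carrier, by 1.34 (SE 0.35, adjusted p = 0.0339) at day 3. Slc2a8 went from 31.6 to 41.2 CPM in healthy samples to 9.31 and 16.2 CPM at day 1 and at most 24.6 CPM at day 3. In all, 3 transporters rose and 2 fell at day 1, 2 rose and 2 fell at day 3, and 0 were called at day 7 by edgeR, where 4 had an unadjusted p under 0.05, DESeq2 called 4 and limma voom 5. The list's medians were -0.07, 0.40 and 0.45.

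**Figure D4:**
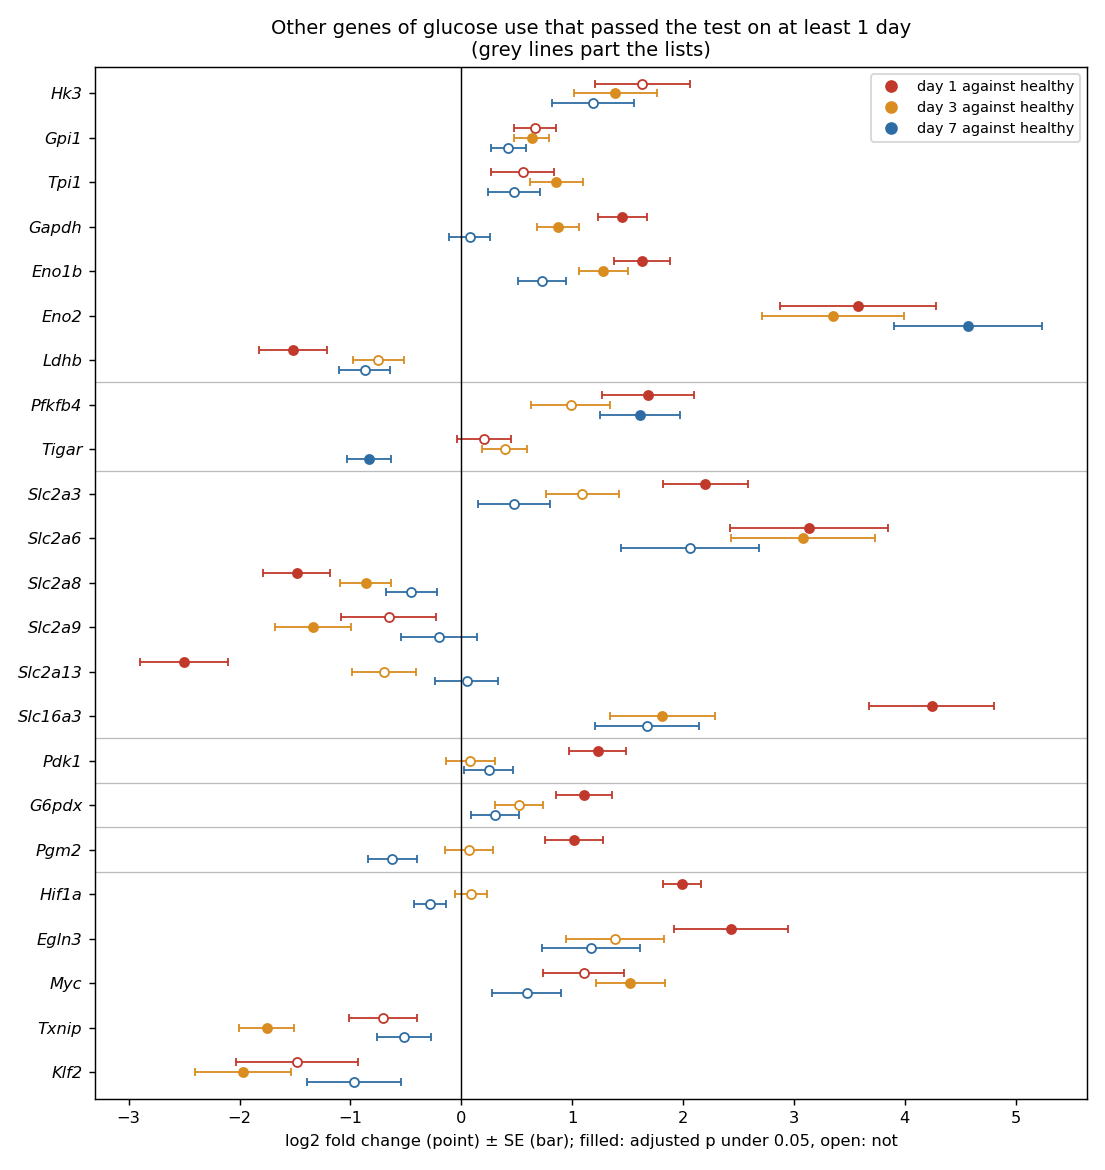
Log2 fold change (horizontal axis, point) with SE (bar) at day 1, 3 and 7 against healthy LSECs for the other genes of glucose use that passed the test on at least 1 day, filled where the adjusted p was under 0.05. Slc16a3 at day 1 (4.24) and Eno2 at day 7 (4.57) lie farthest to the right, and Slc2a13 at day 1 (-2.50) farthest to the left.

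In the other metabolic lists a single gene was called at day 1. Of the 13 genes that govern pyruvate entry into mitochondria, Pdk1, a kinase that shuts pyruvate dehydrogenase, rose by 1.23 (SE 0.26, adjusted p = 0.0167) from 13.9 to 18.1 CPM in healthy samples to 40.8 and 33.7 CPM, and the list's median was 0.24. Of the 8 pentose phosphate genes, G6pdx, its entry enzyme, rose by 1.10 (SE 0.26, adjusted p = 0.0261), with a median of 0.37. Of the 11 glycogen genes, Pgm2, a phosphoglucomutase, rose by 1.02 (SE 0.26, adjusted p = 0.0437), with a median of -0.04. By edgeR these lists had 0 calls at day 3 and day 7, with 1 to 4 genes of each under an unadjusted p of 0.05, 0 or 1 called by DESeq2 and 1 to 7 by limma voom. Their medians at these days were -0.13 and -0.38, 0.41 and 0.09, and 0.03 and -0.06. The 8 gluconeogenesis genes, with medians of -1.81, -0.50 and -0.15, and the 10 hypoxia-responsive genes outside glycolysis, with medians of 0.73, -0.17 and -0.16, had 0 calls by edgeR at any day. Hepatocytes are the main site of gluconeogenesis, and their 10 markers summed to 30.1 and 131 CPM at day 1 against at least 214 CPM in healthy samples, whose part in these values was not tested. At day 1 an unadjusted p under 0.05 was reached by 5 and 3 of them, and DESeq2 called 5 and 1 and limma voom 1 and 4. At days 3 and 7 the counts were 1 and 0 (gluconeogenesis) and 4 and 2 (hypoxia-responsive), with 1 of each called by DESeq2 at day 3 and 0 at day 7, and with 0 and 0 and 4 and 3 called by limma voom.

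Of 18 regulators of glucose use, Hif1a, the oxygen-sensitive factor that activates glycolytic genes, rose at day 1. It measured 92.8, 89.6, 91.7 and 85.8 CPM in healthy samples, 398 and 315 CPM at day 1, 89.4, 85.6, 104 and 104 CPM at day 3 and 87.1, 65.6, 67.4 and 76.5 CPM at day 7. The day 1 fold change was 1.99 on the log2 scale (SE 0.17, adjusted p = 4.45e-05), and at day 3 it was 0.09 (SE 0.14, adjusted p = 0.761). Egln3, an oxygen sensor that marks Hif1a for decay, rose at day 1 by 2.43 (SE 0.51, adjusted p = 0.0160), mainly through 1 sample (18.9 CPM, against 3.17 CPM in the other and 1.25 to 3.03 CPM in healthy samples). The list's median was -0.09 at day 1.

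At day 3, when Hif1a was back within 85.6 to 104 CPM, Myc rose while Txnip and Klf2 fell. Myc, a growth factor-induced activator, rose by 1.52 (SE 0.31, adjusted p = 0.0122), with 88.8, 81.3, 180.3 and 237 CPM against 43.6 to 61.2 CPM in healthy samples. Txnip, which slows glucose uptake by taking GLUT carriers off the membrane, fell by 1.75 on the log2 scale (SE 0.25, adjusted p = 0.00211), from 683 to 1054 CPM in healthy samples to 295, 192, 261 and 309 CPM. Klf2, a flow-induced factor that holds endothelial glycolysis low, fell by 1.97 (SE 0.43, adjusted p = 0.0164), from 1929 to 2847 CPM to 348, 266, 687 and 1017 CPM. The list's median was -0.30 at day 3 and -0.09 at day 7, where edgeR called 0, with 3 genes at an unadjusted p under 0.05, 0 called by DESeq2 and 6 by limma voom.

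Markers of other cells moved with the days. Over all 11 monocyte and neutrophil markers, 5 were called at day 1, 5 at day 3 and 1 at day 7, all higher, and no marker was under 3 counts in every sample of a group. At day 3, replicates 3 and 4 held 1570 and 1438 CPM of these markers, against up to 1525 CPM in healthy samples. The same samples held 778 and 2523 CPM of the 10 stellate cell markers (healthy 144 to 262 CPM), 733 and 916 CPM of the 5 injury macrophage markers (healthy 174 to 243 CPM) and 3455 and 1904 CPM of the hepatocyte markers. In these 2 samples Slc2a1 measured 23.1 and 29.2 CPM, Hk2 33.8 and 27.2 CPM, Pgk1 175 and 154 CPM and Eno1 260.1 and 281 CPM, all above every healthy sample. Without replicates 1 and 2, the samples richest in monocyte and neutrophil markers, the day 3 log2 fold change was 1.25 for Slc2a1 (adjusted p = 0.0383), 1.30 for Hk2 (adjusted p = 0.0203), 0.71 for Pgk1 (adjusted p = 0.0434) and 0.93 for Eno1 (adjusted p = 0.0723, no longer called). This fit was chosen after the data were seen and left 2 day 3 samples. They had 28203 and 22986 genes with a count, against 34678 and 34768 in replicates 1 and 2. The part of all these markers in the day 3 result was not tested.

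Stellate cell and injury macrophage markers were higher at days 3 and 7, the days on which Hk2 was called. At day 1, when Hk2 was not called, the injury macrophage sum was also above the healthy samples (671 and 401 CPM against 174 to 243 CPM). The stellate cell sum was then below them (124 and 103 CPM against 144 to 262 CPM). Of the 10 stellate cell markers 9 were called higher at day 3 and 9 at day 7, and their sum was 778 to 2523 CPM and 416 to 7110 CPM. All 5 injury macrophage markers were called higher at both days, and their sum was 733 to 1982 CPM and 1263 to 6877 CPM. The share of mitochondrial counts was 3.04% to 3.65% in healthy samples, 3.06% to 5.87% at day 3 and 5.28% to 9.87% at day 7. The part of these markers and of the mitochondrial share in the values of Hk2 and of the other members at these days was not tested.

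**Figure D5:**
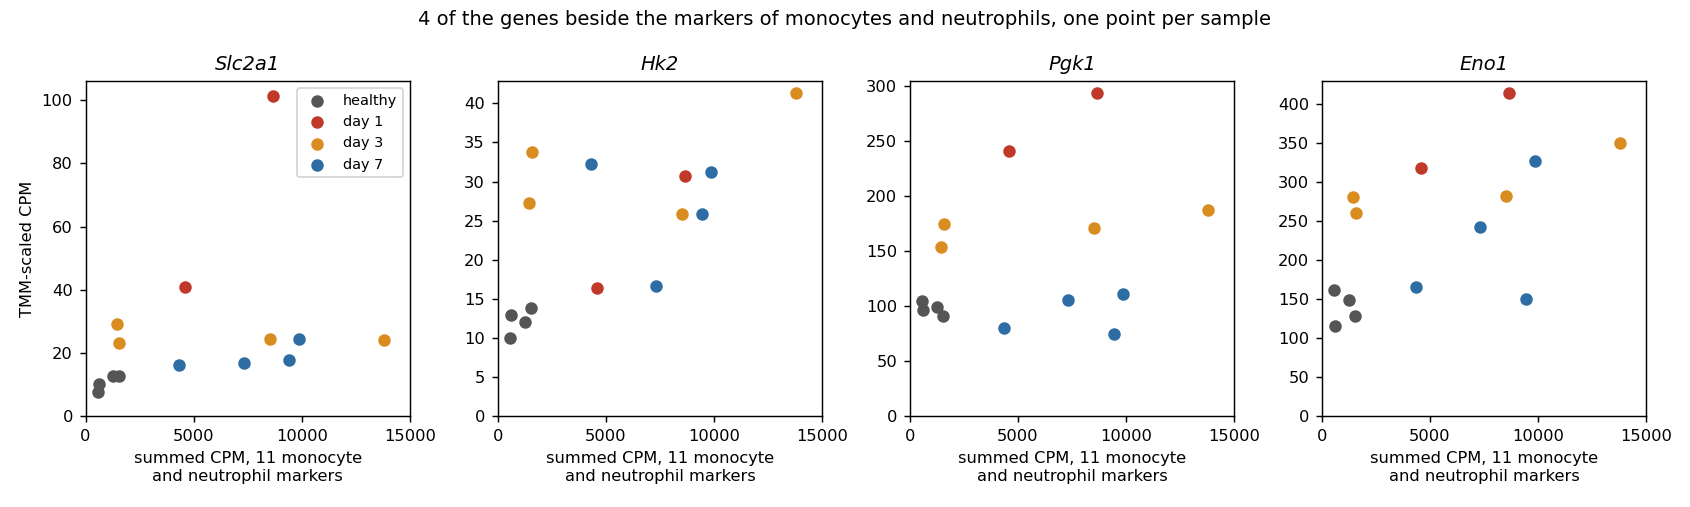
TMM-scaled CPM of Slc2a1, Hk2, Pgk1 and Eno1 (vertical axes, from 0) against the summed CPM of 11 monocyte and neutrophil markers (horizontal axis), 1 point per sample. At the left, 2 day 3 samples with 1570 and 1438 CPM of the markers lie above all healthy samples for each of the 4 genes.

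At day 1 no sample was low in monocyte and neutrophil markers. The sample with 8648 CPM of them had 101 CPM of Slc2a1, 294 CPM of Pgk1, 415 CPM of Eno1 and 1073 CPM of Pkm, and the sample with 4602 CPM had 41.0, 241, 318 and 773 CPM of the same genes. The sample richer in markers was the higher one for each of these 4 genes. It was also the higher one for Hk2 (30.7 against 16.4 CPM), Pfkl (146 against 127 CPM) and Ldha (772 against 642 CPM). For Aldoa, the other gene called at day 1, it was the lower one (472 against 482 CPM), as it was for Hk1 (63.7 against 128 CPM) and Pfkfb3 (32.0 against 34.2 CPM). At day 7, with 4335 to 9847 CPM of the markers, Slc2a1 measured 16.2 to 24.4 CPM and Pgk1 74.4 to 111 CPM. Eno1 then measured 149.9 to 327 CPM and Pkm 306 to 432 CPM. Day 1 replicate 1 was also richer than replicate 2 in Kupffer cell (2208 against 1002 CPM) and injury macrophage markers (671 against 401 CPM). It was poorer in LSEC (13415 against 16325 CPM) and hepatocyte markers (30.1 against 131 CPM). The part of any of these markers in the day 1 result was not tested. Without day 1 replicate 1, the marker-rich sample, the log2 fold change of Slc2a1 was 1.89. The remaining sample gave 1.26 for Pgk1, 1.16 for Eno1, 1.08 for Pkm and 0.72 for Aldoa. Without day 1 replicate 2, the values were 3.20 for Slc2a1 and 1.56 for Pgk1. A fit with 1 day 1 sample assumes this lone sample to vary like the other groups. In both such fits fewer of the 10 genes, and fewer of all tested genes, were called than with both samples.

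The day 3 samples were split for other members. Pfkl measured 52.8 and 53.3 CPM in replicates 1 and 2, below every healthy sample, and 112 and 161 CPM in replicates 3 and 4. Hk1 was below every healthy sample in replicates 1, 2 and 3 (18.2, 21.5 and 43.8 CPM) and above them in replicate 4 (139 CPM). For Pkm the order was 457 and 335 CPM against 718 and 839.8 CPM. Without replicates 3 and 4, 7 of the 10 genes were called at day 3, with Hk1 lower (-1.99, adjusted p = 0.00343), Pfkl lower (-1.14, adjusted p = 0.00252) and Ldha higher (0.59, adjusted p = 0.0377) beside the 4 called with all samples. That fit called 6245 of all 26288 genes at day 3, where the main fit called 1915 of 26626. Without replicates 1 and 2 the values of Hk1 and Pfkl were 0.31 (adjusted p = 0.689) and 0.32 (adjusted p = 0.338), and Pkm was called higher (1.10, adjusted p = 0.00779). That fit called 2417 of all 24856 genes at day 3. Replicates 1 and 2 also had 34678 and 34768 genes with a count, against 28203 and 22986 in replicates 3 and 4, and the part of the depth of detection in this split was not tested.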

How the data were processed

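RNA of sorted LSECs was sequenced from amplified libraries (SMARTseq v4, without molecular identifiers). FastQC and AfterQC were used for quality control, STAR for mapping (GRCm38.p6) and StringTie for quantification. What the authors deposited is a table of raw read counts, in whole numbers, with a row for each Ensembl gene and no normalization. The annotation release and the use of strand are not given in the sources used here, so counts of overlapping genes are uncertain. Gene names, positions, exon-union lengths and similar transcripts (95% identity over 300 bases, BLAST) came from GENCODE on GRCm38, which held 54495 of 54524 genes, and promoter sequences from RefSeq.

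Genes were filtered with filterByExpr (minimum count 10, minimum total 15), normalised by TMM and fitted in edgeR 4.0.16 under R 4.3.3 (glmQLFit, glmQLFTest), as 1 model of 4 group means over 14 samples, Benjamini-Hochberg adjustment over 26626 genes, called under 0.05. The SE is the absolute log2 fold change over the square root of F. CPM use TMM-scaled library sizes, RPKM divide them by exon length, and log2 CPM have a prior count of 2. All members were named, and per list and day up to 3 called rises and 3 falls with the largest change. The members and lists were chosen with earlier results of these data known. Total counts of 46401496 to 103912264 set the precision, and intervals for counting error were not needed. Alternatives were DESeq2 1.42.0, limma 3.58.1 (voom), RLE, library size only, other filters, fits of 2 groups, a replicate block, added copies and left-out samples. The fits were tested on simulated data.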

Additional observations from a re-analysis of the deposited data

Results flagged for a closer look

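Pfkfb3 in day 3 replicate 2, at 53.3 CPM, stood apart from the other 3 day 3 samples (18.2 to 20.0 CPM), with a gap of more than 0.829 of the group's range. Of 30 groups of 4 samples tested in this way, chance alone sets about 1 in 20 apart. Without this sample the day 3 log2 fold change of Pfkfb3 was -0.23, where it was 0.28 with all samples, and neither passed the test.

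The effect against healthy LSECs differed between days for 4 of the 10 genes by the edgeR contrast of the days, in which the healthy samples cancel out. For Slc2a1 it was lower at day 3 than at day 1 (log2 difference -1.50, adjusted p = 0.0239) and lower at day 7 than at day 1 (-1.92, adjusted p = 0.00314). Pgk1 was lower at day 7 than at day 3 (-0.89, adjusted p = 0.0177) and than at day 1 (-1.53, adjusted p = 0.000754). Aldoa (-0.88, adjusted p = 0.00617) and Pkm (-1.34, adjusted p = 0.0168) were lower at day 7 than at day 1.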

How the results depend on the processing

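Day 1 rests on 2 samples, and calls there and among the days depend on them: with each sample left out in turn, the number of the 10 genes called against healthy LSECs ran from 1 to 5 (day 1), 2 to 6 (day 3) and 0 to 1 (day 7), and between days from 0 to 2 (day 3 against 1), 0 to 1 (7 against 3) and 1 to 5 (7 against 1). Of the other pathway genes 2 to 21, 6 to 22 and 1 to 8 were called at day 1, 3 and 7. The lowest day 1 counts came without day 1 replicate 1. Counts over all genes ranged over all alternatives between 164 and 4308 (day 1), 946 and 7265 (day 3), and 193 and 7047 (day 7), where the main counts were 1080, 1915 and 846. The 16 called fold changes kept their direction in all 432 alternative values, of which 68 no longer passed the test.

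The main counts of members called were 5, 4 and 1 at day 1, 3 and 7, and 1, 1 and 4 between days 3 and 1, 7 and 3, and 7 and 1. DESeq2 called 2 at day 7, 3 and 2 between the first pairs of days, and 33, 23 and 12 pathway genes, where edgeR called 15, 13 and 3. Limma voom called 7 at day 3, 2 at day 7, 6, 3 and 8 between days, and 37, 36 and 35 pathway genes. Library size alone gave 3 at day 1, with 955 of all 26626 genes called. Without a filter, 2 were called at day 3 and 0 at day 7 and between days 7 and 3, with 1 pathway gene at day 7. That fit called 1549 of all 44622 genes at day 3, 596 at day 7 and 157 between days 7 and 3. Fits of the 2 compared groups called 2 at day 7, 0 between days 3 and 1 and 7 and 3, and 23, 5 and 11 pathway genes. Over all genes, these fits called 3156 of 21591 at day 7. They called 189 of 24788 between days 3 and 1 and 1 of 22169 between days 7 and 3. Alternatives chosen after seeing the data left samples out: without day 3 replicates 3 and 4, 7 were called at day 3, 4, 4 and 7 between days, and 28, 32 and 17 pathway genes. Without day 3 replicates 1 and 2, 0 were called between days 3 and 1, with 23 and 7 pathway genes at day 1 and 7. Of all 24856 genes, that fit called 1923 between days 3 and 1, 1952 at day 1 and 2306 at day 7. Without healthy replicate 4 and day 7 replicate 3, 3 were called at day 1, 0 at day 7 and between days 7 and 3, and 8 pathway genes at day 7. That fit called 680 of all 26246 genes at day 1, 802 at day 7 and 62 between days 7 and 3. Of all 26626 genes, DESeq2 called 2837, 3790 and 2713 at day 1, 3 and 7, and 2408, 1783 and 4576 between days. Limma voom called 4308, 7265 and 7047, and 3344, 6002 and 7610. The fit without day 3 replicates 3 and 4 called 2728, 6245 and 4042 of 26288 genes, and 2784, 6133 and 5144. The cause of these shifts was not tested.

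With the replicate number as a block, 3 were called at day 1, 0 at day 7 and between days 3 and 1, with 8 and 1 pathway genes at day 1 and 7. That fit called 594 of all 26626 genes at day 1, 435 at day 7 and 311 between days 3 and 1. Deviations from the group means of the 18 same-numbered pairs correlated at -0.23 to 0.096. This lay within the range of the 54 pairs with other numbers, -0.26 to 0.24. With their group mean removed, the day 1 samples mirror each other, so this check cannot exclude a pairing by number.

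Of the 44 fold changes that were not called, 18 changed sign in 53 alternative values. Hk1 at day 7 against day 3 gave 0.76 with voom and 1.19 without day 3 replicates 3 and 4 (-0.69 to 0.64 with each sample left out), and at day 3 0.31 without replicates 1 and 2. At day 1 Hk1 ran from -0.21 to 0.78 with each sample left out. Hk2 ran from -0.0251 to 0.89 (day 3 against 1), -0.18 to 0.74 (7 against 1) and -0.36 to 0.0184 (7 against 3). Pfkl at day 3 gave 0.32 without replicates 1 and 2 (-0.63 to 0.0432), 0.0027 against day 1, and at day 7 against day 3 0.45 with voom and 0.77 without replicates 3 and 4 (-0.37 to 0.26). Pfkfb3 gave -0.24 at day 3 without replicates 1 and 2 (-0.23 to 0.39) and 0.32 for day 7 against day 3 (-0.30 to 0.34), 0.0138 for day 3 against day 1 without replicates 3 and 4, and at day 7 -0.0706 without a filter and -0.17 without healthy replicate 4 and day 7 replicate 3 (-0.13 to 0.19). Ldha for day 3 against day 1 gave 0.0860 with voom, 0.0381 with library size, 0.0691 with the block and 3.59e-05 without replicates 3 and 4 (-0.25 to 0.0274). Ldha at day 7 gave 0.0289 with DESeq2, 0.0288 with RLE, 0.0704 with library size, 0.0825 with 10 counts in every sample, 0.0123 without day 3 replicates 1 and 2 and 0.0747 without healthy replicate 4 and day 7 replicate 3 (-0.0853 to 0.13). Pgk1 at day 7 gave 0.000761 with library size, 0.0129 with 10 counts in every sample and 0.0460 without healthy replicate 4 and day 7 replicate 3 (-0.18 to 0.0502). Pkm gave 0.0136 for day 7 against day 3 without replicates 3 and 4, and at day 7 -0.0318 with voom and -0.10 without a filter (-0.0617 to 0.14). With 2 samples at day 1, the SE of the members' fold changes there was 0.16 to 0.63.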
